A study of Mus musculus with 17 samples.

Results

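Expression of 8 genes of the glucocorticoid response was followed in the choroid plexus of mice given dextran sodium sulfate (DSS), a polymer added to drinking water that injures the colon lining and induces colitis. The genes were chosen by symbol, as Nr3c1, Hsd11b1, Fkbp5, Tsc22d3, Sgk1, Zbtb16, Pdk4 and Klf9, and all 8 were found among the 55487 genes of the count table. Whole tissue from the lateral ventricles of C57BL/6 mice was sequenced in 17 libraries, each labelled with a time point of DSS treatment. T1 mice had received DSS for 1 day (n = 4), T3 mice for 3 days (n = 4), and T5 mice for 3 days with 2 more days on water (n = 4), while CTRL mice were the controls (n = 5). The labels do not say that libraries of a group came from separate animals, so p-values measure the spread between these libraries, which may be technical in part. The labels give no age, sex, hour of dissection or corticosterone level.

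Glucocorticoids, in mice mainly corticosterone from the adrenal cortex, cross cell membranes and bind the glucocorticoid receptor, which Nr3c1 encodes. The bound receptor leaves its chaperones, enters the nucleus and binds a palindromic DNA element, often near genes such as Fkbp5, Tsc22d3 and Sgk1. Hsd11b1 encodes an enzyme that regenerates active corticosterone from its inert form inside cells, so that local exposure can differ from that in blood. The choroid plexus is a vascularised epithelium that secretes cerebrospinal fluid and forms the barrier between blood and that fluid.

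The receptor element was looked for in promoter windows of the genes. Sgk1 was by far the most abundant of the 8 genes, and Tsc22d3 one of those that varied with the libraries' content of brain tissue. The window printed for each was picked because it held a match, out of 6 windows for Sgk1 and 3 for Tsc22d3. RefSeq windows on GRCm38.p6, from 250 bases before an annotated start to 50 after it, were matched for 6 of the 8 genes (13 windows), and Nr3c1 and Zbtb16 were not analysed here by sequence. The full palindrome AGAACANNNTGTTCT, which reads the same on both strands, was present in 3 of 32851 windows (0.00913%), and 1 of these 3 belonged to Sgk1. Its single arm TGTTCT, on either strand, was present in 6233 windows (19%), and the arms of the palindrome count among these matches. Windows of 2 of the 6 genes, Sgk1 and Tsc22d3, held it, a count of genes and not of windows. The Sgk1 window lies at chr10:21993640-21993939 on the plus strand, with the palindrome in capitals at 21993701 to 21993715, in an intron of 5 of the 13 annotated Sgk1 transcripts and upstream of the start of another. A further single arm near the 5′ end of that window is left in lower case. The Tsc22d3 window lies at chrX:140600473-140600772 on the minus strand, with the single arm in capitals. A match is a description of the letters and no evidence of binding.
Sgk1: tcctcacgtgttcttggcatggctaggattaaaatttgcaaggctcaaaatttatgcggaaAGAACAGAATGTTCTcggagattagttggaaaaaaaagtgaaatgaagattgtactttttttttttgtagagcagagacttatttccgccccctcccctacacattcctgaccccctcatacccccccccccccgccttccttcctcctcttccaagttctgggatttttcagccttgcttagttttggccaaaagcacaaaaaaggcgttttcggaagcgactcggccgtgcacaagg
Tsc22d3: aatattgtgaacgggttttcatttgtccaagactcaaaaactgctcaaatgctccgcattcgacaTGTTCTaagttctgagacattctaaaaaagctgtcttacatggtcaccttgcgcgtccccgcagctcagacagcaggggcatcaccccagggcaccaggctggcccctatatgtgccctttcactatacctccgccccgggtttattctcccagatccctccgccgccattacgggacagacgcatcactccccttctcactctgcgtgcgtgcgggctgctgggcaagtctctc

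Library totals ran from 8875921 to 26839417 counts, and every one of the 8 genes passed the filter on low counts, which kept 16851 genes. Choroid plexus epithelium markers (10 genes, among them Ttr) summed to 97120 to 221200 CPM in T1, 111900 to 188500 in T3, 138900 to 214100 in T5 and 134700 to 201700 in CTRL. Of the markers of surrounding brain, those of oligodendrocytes (9 genes) varied most, and summed to 312 to 9251 CPM in T1, 171 to 993 in T3, 447 to 16570 in T5 and 97.5 to 7091 in CTRL. Neuron markers (10 genes) summed to 105 to 375 CPM in T1, 25.6 to 429.6 in T3, 73.4 to 591 in T5 and 17.2 to 125 in CTRL, and astrocyte markers (8 genes), with a narrower range, to 635 to 1311, 587 to 1074, 712 to 1570 and 627 to 1107 CPM in the same order. A set of 4 libraries whose sample numbers are 28 or higher, namely T3 replicate 4 and T1 replicates 2 to 4, stood apart, with 24187 to 26356 genes expected at the lowest depth against 19729 to 22934 in the other 13, and 1.86 to 2.04% mitochondrially encoded counts against 2.5 to 3.75%. This set was known from earlier results of these data, it holds 3 of the 4 T1 libraries, and the labels name no batch. CPM are the counts of a gene scaled to one library size with TMM factors, and in such bulk samples fewer cells of a type and less RNA per cell cannot be told apart.

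None of the 8 genes passed the test in any of the 4 comparisons. By edgeR's quasi-likelihood test with Benjamini-Hochberg adjustment over 16851 genes, 0 of the 8 were called between T1 and CTRL, against 0% of all genes tested, and likewise 0 of 8 and 0% for T3 against CTRL, for T5 against CTRL and for T5 against T3. An unadjusted p under 0.05 was reached by Zbtb16 for a higher level in T1 than in CTRL, as by 9.43% of all genes, and by Hsd11b1 for a higher level in T5 than in CTRL, as by 3.89%. Between T5 and T3 it was reached by Klf9 for a higher and by Pdk4 for a lower level in T5, as by 4.31 and 6.15% of all genes. In both directions together 3553, 838, 1320 and 1764 genes had such a p in the 4 comparisons (T1, T3 and T5 against CTRL, then T5 against T3). DESeq2 called 826, 2, 16 and 84 genes in the same order. It gave no adjusted p for Zbtb16 and Hsd11b1 in T1, and called 0 of the other 6 there and 0 of the 8 in the other comparisons. With edgeR, 2203 genes were called between T1 and CTRL without T1 replicate 1 and 717 without T3 replicate 4, and 1 gene between T5 and T3 without T5 replicate 4, again with 0 of the 8. The median log2 fold change of the 8 genes was 0.28 in T1, 0.15 in T3 and 0.30 in T5 against CTRL, where that of all genes was 0.08, 0.02 and 0.02. Between T5 and T3 it was 0.08 for the 8 genes and 0.01 for all genes. The 3 comparisons with CTRL share the same control libraries.

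**Figure D1:**
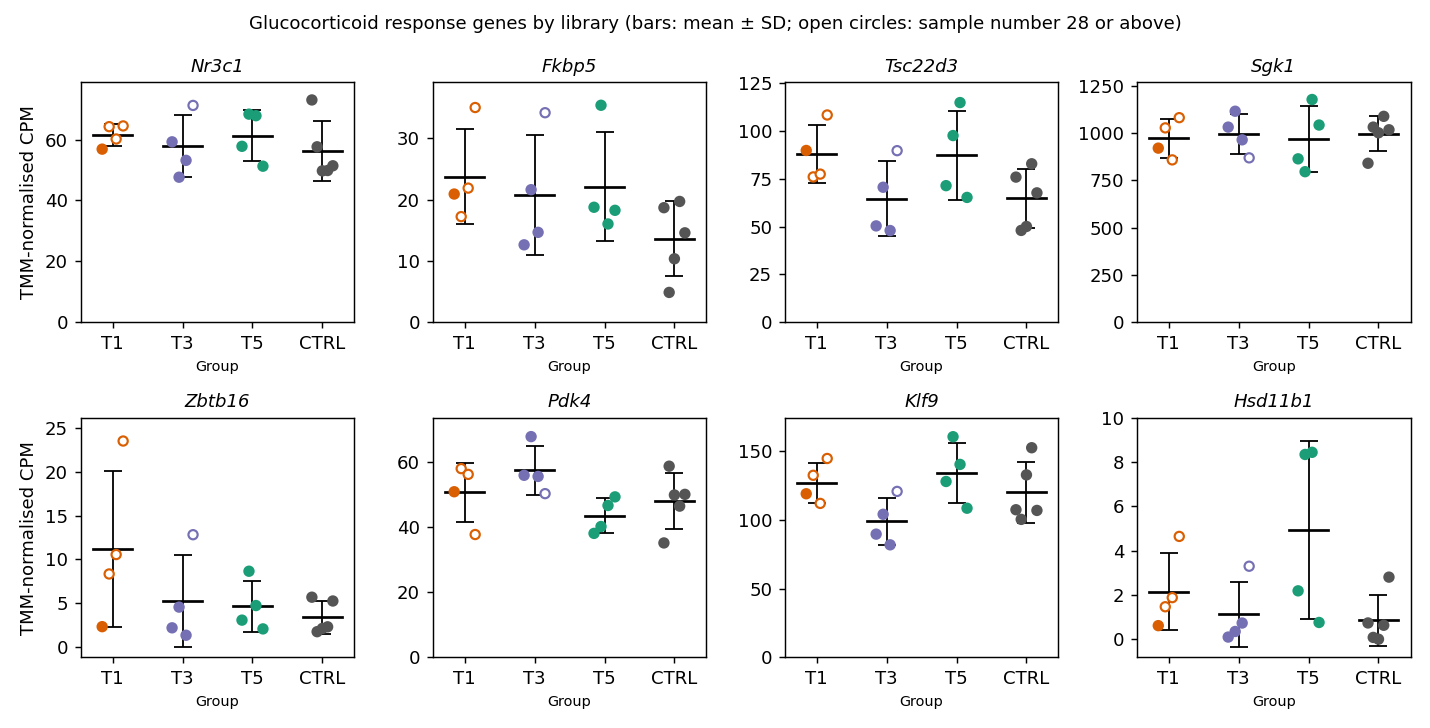
TMM-normalised CPM (vertical axis, linear and including 0) of each of the 8 genes in the 17 libraries by group; each circle is a library, bars are the mean ± SD (n = 4 for T1, T3 and T5, n = 5 for CTRL), and open circles mark sample numbers of 28 and above. Sgk1 lies between 795 and 1177 CPM in all libraries, and the highest Zbtb16 values, 12.8 and 23.5 CPM, are open circles in T3 and T1.

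The receptor gene Nr3c1 stood at nearly one level in all groups. Its 4 T1 libraries had 56.8, 64.2, 60.2 and 64.5 CPM, the T3 libraries 59.2, 47.6, 53.2 and 71.2 CPM, and the T5 libraries 57.8, 68.3, 67.8 and 51.2 CPM, against 73.0, 57.6, 49.7, 49.8 and 51.4 CPM in CTRL. The ranges of all groups overlapped, and the highest library of all was CTRL replicate 1. The means were 61.4 ± 3.64 in T1, 57.8 ± 10.1 in T3, 61.3 ± 8.29 in T5 and 56.3 ± 9.89 in CTRL (SD, n = 4 and 5). The log2 fold change was 0.13 ± 0.14 (SE) in T1, with a 95% interval of -0.16 to 0.41, 0.04 ± 0.14 in T3 (-0.25 to 0.33) and 0.12 ± 0.14 in T5 (-0.17 to 0.41). These bounds are approximate 95% intervals for a single gene, without adjustment over all genes, and are not a limit of detection. The smallest change that would have passed the adjusted test was not tested.

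Hsd11b1, the corticosterone-regenerating enzyme, was the least abundant of the 8 genes and the most uneven between libraries. T5 had 2.19, 8.35, 8.44 and 0.756 CPM, T1 0.612, 1.47, 1.88 and 4.64 CPM, and T3 0.0963, 0.349, 0.731 and 3.30 CPM, against 0.734, 0.0807, 0, 0.63 and 2.80 CPM in CTRL. These values rest on 0 to 119 reads a library, and T5 replicates 1 and 4, at 2.19 and 0.756 CPM, lay inside the CTRL range. The mean was 4.93 ± 4.04 CPM in T5 and 0.85 ± 1.14 CPM in CTRL (SD, n = 4 and 5), which gave a log2 fold change of 2.54 ± 1.11 (SE) with an unadjusted p of 0.0362 and an adjusted p of 0.617 by edgeR. Between T1 and CTRL it was 1.35 ± 1.10 (adjusted p = 0.481) and between T3 and CTRL 0.45 ± 1.10 (0.962). With 1 library left out the T1 value ran from 0.66 without T1 replicate 4 to 2.62 without CTRL replicate 5, and the T5 value from 2.15 without T5 replicate 3 to 3.81 without CTRL replicate 5. The highest T5 libraries, replicates 2 and 3, also had high brain markers, at a mean log2 CPM of 5.56 and 6.51. When the model held a term marking sample numbers of 28 and above, the values were -0.84 in T1 and -0.86 in T3, and without T3 replicate 4 the T3 value was -1.01.

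Sgk1, a kinase that raises sodium channel and transporter activity at the surface of epithelial cells, was the most abundant. Per kilobase of exon it averaged 201 CPM over the 17 libraries, against 24.9 for Klf9, 17.4 for Tsc22d3, 14.2 for Pdk4, 7.68 for Nr3c1, 2.08 for Fkbp5, 1.13 for Zbtb16 and 0.513 for Hsd11b1. It was also the steadiest, with a coefficient of variation of CPM over all libraries of 11.1%, against 13.6% for Nr3c1 and 122% for Hsd11b1. T1 had 919.8, 1027, 858 and 1081 CPM, T3 1031, 1115, 964 and 868 CPM, and T5 863, 795, 1177 and 1042 CPM, against 839.8, 1031, 1001, 1088 and 1017 CPM in CTRL. The groups overlapped throughout, and T5 held both the lowest and the highest library. The log2 fold change against CTRL was -0.04 ± 0.13 (SE) in T1, -0.0011 ± 0.13 in T3 and -0.04 ± 0.13 in T5, with 95% intervals of -0.32 to 0.24, -0.28 to 0.28 and -0.32 to 0.24. Between T5 and T3 the log2 fold change was -0.04 ± 0.14, with a 95% interval of -0.33 to 0.26. Each of these intervals includes 0. The promoter window shown for Sgk1 holds the palindrome of the receptor, but receptor activity was not tested.

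Fkbp5 encodes a co-chaperone that lowers the receptor's affinity for hormone and is itself induced by the receptor, a short feedback loop. T1 had 20.9, 17.2, 21.9 and 35.1 CPM, T3 12.6, 21.6, 14.7 and 34.2 CPM, and T5 18.8, 35.4, 16.03 and 18.3 CPM, against 18.7, 4.84, 10.3, 19.7 and 14.6 CPM in CTRL. All 4 T1 and all 4 T5 libraries and 3 of the 4 T3 libraries lay above the CTRL mean, but each group overlapped CTRL. The means were 23.8 ± 7.79 CPM in T1, 20.8 ± 9.75 in T3 and 22.1 ± 8.95 in T5, against 13.6 ± 6.15 in CTRL (SD). The log2 fold changes were 0.80 ± 0.38 (SE) in T1, 0.62 ± 0.38 in T3 and 0.70 ± 0.38 in T5, with edgeR adjusted p of 0.243, 0.911 and 0.698. In each DSS group 1 library stood near 35 CPM, T1 replicate 4, T3 replicate 4 and T5 replicate 2, and their brain markers had a mean log2 CPM of 6.63, 5.59 and 5.56. Other libraries with such a marker mean had less Fkbp5. T5 replicate 3, with the highest mean of T5 at 6.51, had 16.03 CPM, the lowest of that group. CTRL replicate 5, at 5.715, had 14.6 CPM. Neuron markers alone summed to 375, 429.6 and 591 CPM in the libraries near 35 CPM of Fkbp5, in the order named. They summed to 153.5 CPM in T5 replicate 3 and 111.8 CPM in CTRL replicate 5. Fkbp5 did not follow neuron markers in every library. T1 replicate 2, with 198 CPM of neuron markers, had 17.2 CPM of Fkbp5, the lowest of T1. CTRL replicate 4, with 46.8 CPM of these markers, had 19.7 CPM, the highest of CTRL, and T3 replicate 2, with 47.9 CPM, had 21.6 CPM. The part of each cell type in the Fkbp5 values was not tested. Without the 4 libraries of high sample number the log2 fold change was 0.61 in T1, where a single library remained, and 0.28 in T3 (adjusted p = 0.935 and 0.957).

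Tsc22d3 encodes GILZ, a leucine zipper protein that mediates anti-inflammatory actions of glucocorticoids. T1 had 89.9, 76.0, 77.5 and 108.5 CPM, T3 50.4, 70.6, 47.9 and 89.8 CPM, and T5 71.5, 97.7, 115 and 65.3 CPM, against 76.0, 48.0, 50.1, 82.9 and 67.7 CPM in CTRL. All T1 and T5 libraries lay above the CTRL mean of 64.9 CPM and 2 of the 4 T3 libraries did, and no group was free of overlap with CTRL. The log2 fold change was 0.44 ± 0.22 (SE) in T1, -0.002 ± 0.22 in T3 and 0.43 ± 0.22 in T5, with edgeR adjusted p of 0.26, 0.998 and 0.664. Between T5 and T3, where the means were 87.4 ± 23.2 and 64.7 ± 19.6 CPM (SD, n = 4 each), it was 0.43 ± 0.23 (adjusted p = 0.506).

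Zbtb16 encodes PLZF, a zinc finger transcription factor strongly induced by glucocorticoids in many cells. T1 had 2.35, 8.35, 10.6 and 23.5 CPM, T3 2.21, 4.57, 1.37 and 12.8 CPM, and T5 3.09, 8.66, 4.75 and 2.09 CPM, against 5.70, 1.77, 2.15, 2.33 and 5.27 CPM in CTRL. The 3 T1 libraries above the CTRL range and the single T3 library above it were the 4 with sample numbers of 28 and above, at 8.35 to 23.5 CPM, against 1.37 to 8.66 CPM in the other 13. The only T1 library outside that set, replicate 1, lay within the CTRL range, and T5 replicate 2, also outside it, lay above that range at 8.66 CPM. The log2 fold change in T1 was 1.70 ± 0.68 (SE), with an unadjusted p of 0.0235 and an adjusted p of 0.183 by edgeR. With 1 library left out it ran from 1.04 without T1 replicate 4 to 2.03 without T1 replicate 1. It was -0.39 with a term for these libraries, and -0.57 without them, where the lone T1 library was taken to vary as other groups do. The part of those libraries' other differences in the Zbtb16 values was not tested.

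Pdk4 and Klf9 differed between the end of DSS and the following water, without passing the test. Pdk4 encodes a kinase that shuts down pyruvate dehydrogenase and spares glucose; T5 had 38.1, 40.1, 46.6 and 49.2 CPM, against 55.9, 67.7, 55.5 and 50.2 CPM in T3. All T5 libraries lay below all T3 libraries, as was the case for 4.31% of all genes tested in this comparison. The means were 43.5 ± 5.28 CPM in T5 and 57.3 ± 7.39 CPM in T3 (SD, n = 4 each), a log2 fold change of -0.40 ± 0.16 (SE; unadjusted p = 0.022, adjusted p = 0.414 by edgeR). T1, at 50.8, 57.9, 56.1 and 37.7 CPM, and CTRL, at 35.1, 58.7, 49.8, 46.4 and 50.02 CPM, overlapped both ranges. T3 replicate 2, at 67.7 CPM, lay above all T1 and CTRL libraries. Cell type markers differed in the same comparison: all 9 oligodendrocyte markers (median log2 fold change 3.44) and all 8 ependymal markers (0.73) were higher in T5 than in T3, none passing the test. Ependymal markers summed to 363 to 494 CPM in T5 and 198 to 397 CPM in T3. With the brain marker covariate the log2 fold change was -0.28 for Pdk4 and 0.36 for Klf9, and the part of ependymal cells was not tested.

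Klf9 encodes a Krüppel-like factor that glucocorticoids and thyroid hormone induce. T5 had 128, 160.2, 140.1 and 108 CPM, against 89.5, 104, 81.7 and 120.5 CPM in T3. All T5 libraries lay above the T3 mean, and T3 replicate 4 lay within the T5 range. The means were 134 ± 21.8 CPM in T5 and 98.9 ± 17.1 CPM in T3 (SD, n = 4 each), a log2 fold change of 0.44 ± 0.16 (SE; unadjusted p = 0.0132, adjusted p = 0.394 by edgeR). T1 stood at 119, 132, 112 and 144 CPM, and CTRL at 107, 100.2, 133, 152 and 107 CPM. Against CTRL the log2 fold change was 0.08 ± 0.15 in T1, -0.28 ± 0.15 in T3 and 0.16 ± 0.15 in T5, and that of Pdk4 was 0.08 ± 0.15, 0.26 ± 0.15 and -0.14 ± 0.15, with adjusted p from 0.761 to 0.911 for these 6 values.

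**Figure D2:**
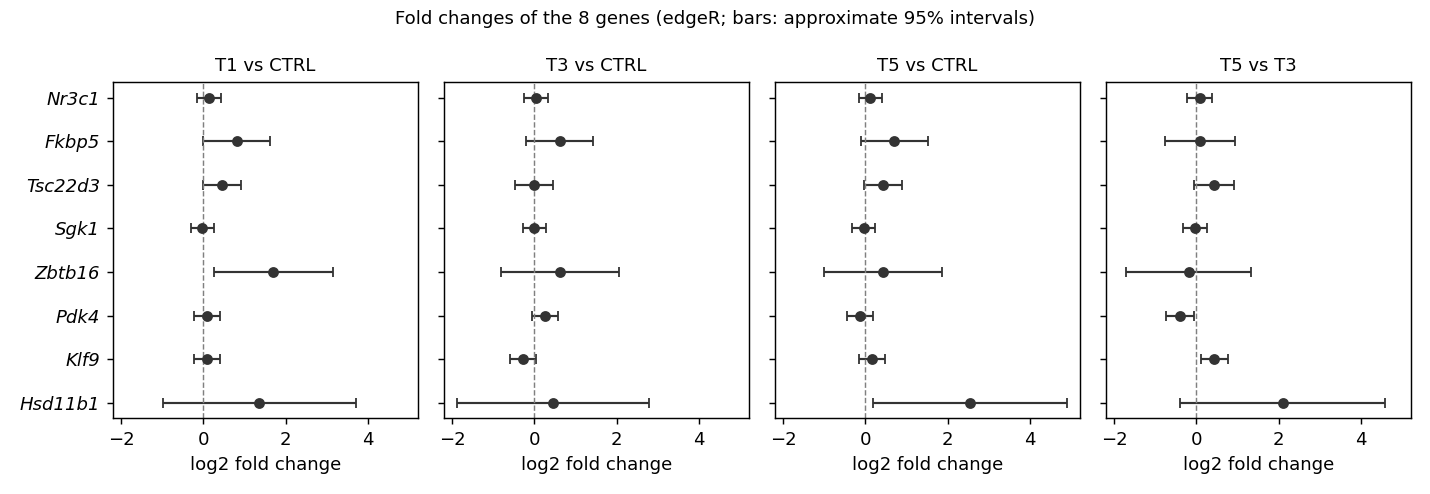
Log2 fold change of each gene (horizontal axis) in the 4 comparisons, with approximate 95% intervals from edgeR. The Sgk1 and Nr3c1 intervals are narrow and include 0 in all 4, and those of Zbtb16 and Hsd11b1 are the widest.

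In order of mean CPM, neighbouring groups differed by less than the larger of their SDs for all 8 genes. T5 or T1 held the highest mean for Nr3c1, Fkbp5, Tsc22d3, Zbtb16, Klf9 and Hsd11b1, T3 for Pdk4 and CTRL for Sgk1. CTRL held the lowest mean for Nr3c1, Fkbp5, Zbtb16 and Hsd11b1, T3 for Tsc22d3 and Klf9, and T5 for Sgk1 and Pdk4.

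Of the 8 genes 4 rose across libraries with the markers of surrounding brain. The mean log2 CPM of 27 neuron, astrocyte and oligodendrocyte markers ran from 4.01 to 6.63 in T1, 2.64 to 5.59 in T3, 4.13 to 6.51 in T5 and 1.51 to 5.715 in CTRL. The slope of each gene on this mean was tested in an edgeR model that also held the groups, a test added after the data were seen. Hsd11b1 rose by 1.22 ± 0.15 log2 units for each unit of the marker mean (SE; adjusted p = 1.89e-05), Zbtb16 by 0.60 ± 0.12 (0.00161), Fkbp5 by 0.31 ± 0.08 (0.0153) and Tsc22d3 by 0.20 ± 0.04 (0.00158). Such a rise was called for 10.7% of all genes tested and a fall for 3.17%. Nr3c1 had a slope of 0.08 ± 0.03 (adjusted p = 0.133), Klf9 of 0.05 ± 0.04 (0.396), Sgk1 of -0.0037 ± 0.04 (0.959) and Pdk4 of -0.08 ± 0.04 (0.199). Without the 4 libraries of sample number 28 and above, 2 of the 8 were called, Hsd11b1 at 1.36 (adjusted p = 0.0026) and Tsc22d3 at 0.20 (0.0291), while Zbtb16 had 0.41 (0.138) and Fkbp5 0.27 (0.299). Without T3 replicate 4 alone Fkbp5 had 0.29 (0.0652), and without CTRL replicate 5 Nr3c1 had 0.11 (0.0465). Over all genes 2338 slopes were called, against 691 without the 4 libraries, 1233 without T3 replicate 4, 1490 without T1 replicate 4 and 2552 without CTRL replicate 5.

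**Figure D3:**
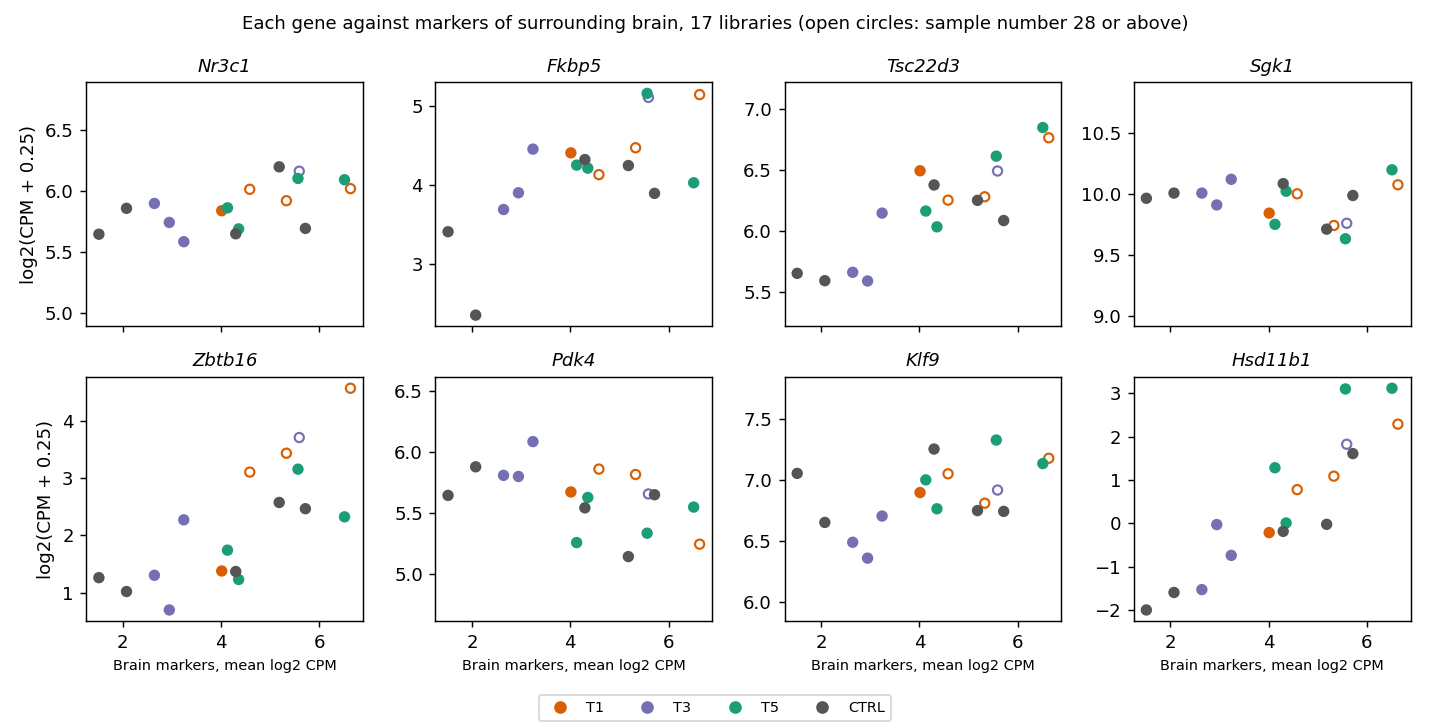
Level of each gene, as log2(CPM + 0.25), against the mean log2 CPM of the brain markers in the same library, for 17 libraries coloured by group; open circles mark sample numbers of 28 and above. In the model of the 17 libraries that also held the groups, Hsd11b1 had the steepest slope, 1.22, and Sgk1 had -0.0037. No slope within a single group, or over the libraries without the groups, was tested.

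With the brain marker mean as a covariate, the log2 fold changes of these 4 genes against CTRL were smaller in size in T1 and T5, while in T3 that of Zbtb16 was smaller and those of Fkbp5, Tsc22d3 and Hsd11b1 were larger. Zbtb16 in T1 had a log2 fold change of 0.71 (adjusted p = 0.519) in place of 1.70, with 0.44 in T3 and -0.37 in T5. For Fkbp5 it was 0.41 in T1, 0.65 in T3 and 0.36 in T5, and for Tsc22d3 0.17 in T1, 0.01 in T3 and 0.14 in T5. For Hsd11b1 it was 0.56 in T1, 1.11 in T3 and 1.69 in T5. Between T5 and T3 Tsc22d3 had 0.12 with the covariate, in place of 0.43, and Hsd11b1 0.59, in place of 2.09. Zbtb16 and Fkbp5 were larger in size there, at -0.815 in place of -0.19 and -0.29 in place of 0.08. None of these values passed the test.

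A list of 24 other genes known to be induced by glucocorticoids was also tested. In every comparison 0 of the 24 passed the test, against 0% of all genes tested. Of the 24 genes 21 had a positive log2 fold change in T1, 14 in T3 and 18 in T5 against CTRL. Of all genes 57.7, 52.7 and 54.5% were positive. Markers of several other cell types were higher in T1 as well, none of them passing the test. All 10 neuron markers (median log2 fold change 1.90), all 10 of endothelium (1.13), all 8 of mural cells (1.12), all 8 of border macrophages (0.59) and all 7 tested of fibroblasts (0.47) were positive. Endothelial markers summed to 97.6 to 233 CPM in CTRL. T1 replicates 2 to 4, all with sample numbers of 28 and above, had 352, 521 and 421 CPM. T1 replicate 1, outside that set, had 196 CPM, inside the CTRL range. T3 replicate 4, also in the set, had 249 CPM, the highest of T3. The part of these cell types, and of that set of libraries, in the values of the 24 genes was not tested. Zfp36, which speeds decay of cytokine mRNAs, averaged 22.7 ± 10.98 CPM over T1 libraries and 10.4 ± 1.39 CPM over CTRL libraries (log2 fold change 1.13 ± 0.31, SE; adjusted p = 0.135), and Dusp1, a phosphatase that switches off MAP kinases, at 69.8 ± 40.4 and 38.3 ± 11.3 CPM (0.86 ± 0.31; 0.158). Lcn2, an acute phase gene, had 12.6 ± 24.4 CPM in T1, where the SD exceeded the mean, and 0.756 ± 0.717 CPM in CTRL (4.06 ± 1.35; 0.147), and Mertk, a receptor for uptake of dying cells, had a log2 fold change of 0.65 ± 0.26 (0.18). In T3 those with the smallest p were Mt1 (-0.55 ± 0.22), Crispld2 (2.79 ± 1.22), Nedd9 (0.32 ± 0.15) and Mt2 (-1.07 ± 0.58), each with an adjusted p of 0.911. In T5 they were Mt1 (0.59 ± 0.21), Angptl4, an inhibitor of lipoprotein lipase (0.97 ± 0.37), the transcription factor gene Cebpd (1.09 ± 0.42) and Crispld2 (2.19 ± 1.21), with adjusted p of 0.598 to 0.7. For Crispld2 the SD exceeded the mean in T3 (10.3 ± 17.01 CPM) and T5 (6.83 ± 7.30 CPM), against 1.51 ± 1.43 CPM in CTRL.

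Between T5 and T3 the metallothionein genes, whose products bind zinc and copper, had the smallest p of the 24. Mt1 had 302 ± 90.7 CPM in T5 and 138 ± 10.3 CPM in T3 (log2 fold change 1.13 ± 0.23, SE; unadjusted p = 0.000129, adjusted p = 0.267 by edgeR), and Mt2 had 10.3 ± 6.47 and 2.58 ± 0.88 CPM (1.99 ± 0.61; adjusted p = 0.342). All T5 libraries lay above all T3 libraries for both and for Nfkbia, 3 of 24 genes, as for 3.04% of all genes tested. Nfkbia, the NF-kB inhibitor gene, had 0.42 ± 0.19 (adjusted p = 0.457) and Nedd9 -0.44 ± 0.16 (0.394). Of the 24 genes 7 rose with the brain markers by the slope test, where such a rise was called for 10.7% of all genes tested. Among the 7 were Mt1 (0.19 ± 0.04), Mt2 (0.59 ± 0.08) and Angptl4 (0.32 ± 0.08). The adjusted p of these named genes was 0.0103 at most by edgeR.

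**Figure D4:**
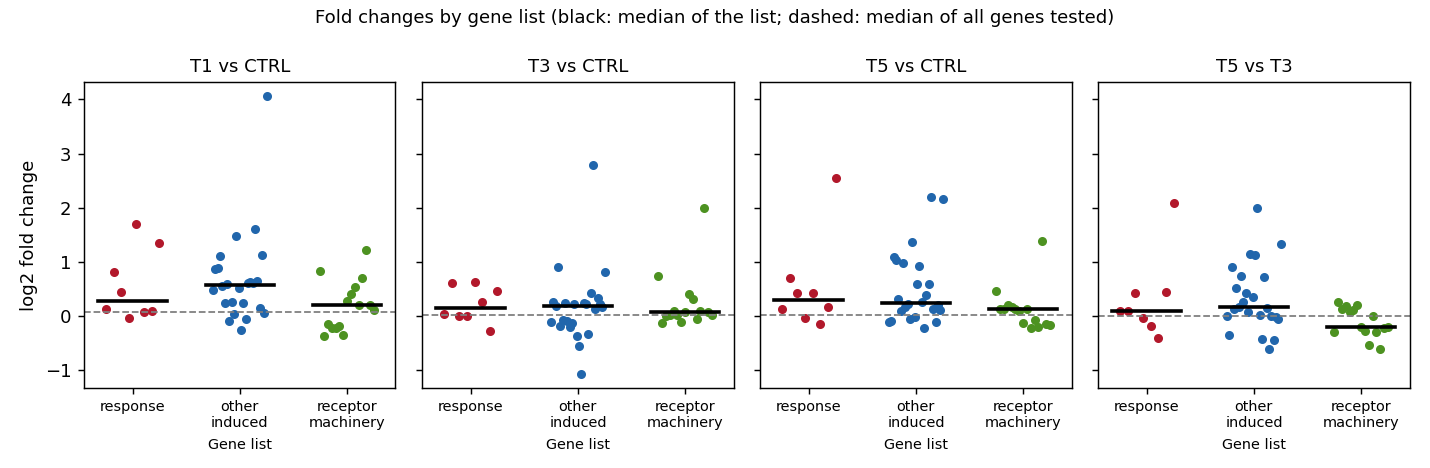
Log2 fold changes (vertical axis) of the 8 response genes, the 24 other induced genes and the 15 genes of receptor machinery and steroid handling in the 4 comparisons; each point is a gene, the black line is the median of the list and the dashed line the median of all genes tested. The medians of the 24 other induced genes are 0.57 in T1, 0.18 in T3 and 0.24 in T5 against CTRL.

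Genes of the receptor's chaperones, cofactors and steroid handling gave no call. Of 16 such genes 15 were tested; Hsd11b2, whose product inactivates corticosterone, did not pass the filter on low counts. In T1 9 were positive and 6 negative against CTRL, where 57.7% of all genes were positive. In every comparison 0 of the 15 passed the test, against 0% of all genes tested. The coactivator genes Ncoa2 and Ncoa1 had log2 fold changes of 0.41 ± 0.15 and 0.27 ± 0.10 in T1 (SE; adjusted p = 0.158 and 0.162 by edgeR), and Fkbp4, a co-chaperone that competes with Fkbp5 on the receptor complex, -0.35 ± 0.12 (0.156), with 217 ± 32.04 CPM over T1 libraries and 276 ± 28.8 CPM over CTRL libraries. In T3 those with the smallest p were Ncoa2 (0.40 ± 0.15), the drug and steroid exporter gene Abcb1a (2.002 ± 0.81), the mineralocorticoid receptor gene Nr3c2 (0.74 ± 0.36) and Ncoa3 (0.31 ± 0.24), each with an adjusted p of 0.911. In T5 they were Abcb1a (1.39 ± 0.81), Med1 (-0.17 ± 0.12), Smarca4 (-0.15 ± 0.11) and Hspa8 (0.20 ± 0.15), and against T3 Ncoa3 (-0.54 ± 0.25), Smarca4 (-0.23 ± 0.12), Ncoa1 (-0.20 ± 0.11) and Ncoa2 (-0.28 ± 0.16), with adjusted p of 0.465 to 0.803 for these 8 values. For Abcb1a the SD exceeded the mean in T3 (8.83 ± 11.1 CPM), against 2.23 ± 2.13 CPM in CTRL.

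The genes whose profile over the 17 libraries was most like each of the 8, by Pearson r of log2 CPM among 13027 genes averaging 1 CPM or more, are given as a description. For Hsd11b1 they were Ntsr2 (0.98), Ntm (0.95) and Sparcl1 (0.95), for Zbtb16 Zmiz1 (0.94), Vamp2 (0.93) and Disp2 (0.92), for Tsc22d3 Ncan (0.92), Atp6v0e2 (0.90) and Ell2 (0.89), and for Fkbp5 Crmp1 (0.91), Sncb (0.89) and Thy1 (0.88). For Pdk4 they were Ppp2r1b (0.90), Abcd3 (0.90) and Wdr72 (0.90), for Nr3c1 Kcnh7 (0.88), Abcd2 (0.87) and Lama2 (0.85), for Klf9 Mllt1 (0.82), Ppm1m (0.78) and Rab35 (0.77), and for Sgk1 Tfeb (0.74), Dnaic1 (0.74) and Uba1 (0.73). None of the 8 was among the nearest genes of another.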

How the data were processed

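The deposited table holds raw counts of reads for each Ensembl gene; per the labels' protocols, SMART-Seq v4 libraries were made from total RNA. Trimmomatic 0.39, STAR 2.6.1b and featureCounts 1.6.4 are named, with the build GRCm38, in the submitters' processing notes. Annotation release and strand setting are not stated there, and PCR copies count as reads. GENCODE M21 gave symbols for 55394 of 55487 identifiers and merged exon lengths; exons of the 8 genes overlapped no exon of another gene. Replicate numbers only name libraries.

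edgeR 4.0.16 (R 4.3.3) was used with TMM, filterByExpr by group, 1 mean per group over 17 libraries and robust quasi-likelihood F tests (threshold 0.05 after Benjamini-Hochberg adjustment; common dispersion 0.141). SEs are the log2 fold change over the square root of F; they and the intervals made from them are approximate. The fit was tested on simulated data. DESeq2 1.42.0 was an alternative. Named were the 8 genes, the up to 4 of smallest p in each companion list and comparison, and the 3 of most similar profile. A gene that this rule names is not reported here. Members and lists were chosen with earlier results of these data known. Within groups, pairs of libraries had a chi-square per gene of 7.52 to 107, so none was treated as a copy.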

Additional observations from a re-analysis of the deposited data

Results flagged for a closer look

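In 2 of 32 sets of values (8 genes in 4 groups) 1 library lay far from the others of its group, and chance alone gives about 1 in 20. Fkbp5 stood at 35.4 CPM in T5 replicate 2, against 16.03 to 18.8 CPM in the other T5 libraries. Hsd11b1 stood at 2.80 CPM in CTRL replicate 5, against 0 to 0.734 CPM in the other CTRL libraries.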

How the results depend on the processing

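No paired analysis was possible because the labels give no replicate numbers shared between groups. None of the 8 genes was called in any of the 4 comparisons under any alternative that was run and gave an adjusted p; DESeq2's test gave none for Zbtb16 and Hsd11b1 in T1. DESeq2 size factors, no filter on low counts, only the groups compared, the brain marker covariate, a term for sample numbers of 28 and above, and their removal all gave 0 genes called by edgeR. DESeq2's test called 826 genes in T1, 2 in T3 and 16 in T5 against CTRL and 84 in T5 against T3. Leaving out 1 replicate at a time gave 0 to 2203 genes called in T1 against CTRL (2203 without T1 replicate 1, 717 without T3 replicate 4) and 0 to 1 in T5 against T3. Calls of the brain marker slope numbered 2338, 691 without the libraries of sample number 28 and above, where 2 of the 8 genes were called, and 1233 (without T3 replicate 4) to 3160 (without CTRL replicate 3) with 1 replicate left out, with 1490 without T1 replicate 4.

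Signs turned only in values that had not passed the test. With a term for sample numbers of 28 and above the log2 fold change in T1 was -0.0893 for Nr3c1, 0.023 for Sgk1, -0.3945 for Zbtb16, -0.1123 for Klf9 and -0.8422 for Hsd11b1; in T3 it was -0.045 for Nr3c1, 0.0159 for Sgk1, -0.3654 for Zbtb16 and -0.8622 for Hsd11b1, and Zbtb16 had 0.794 in T5 against T3. Without these libraries, with 1 T1 library left, it was -0.0042 for Nr3c1, -0.565 for Zbtb16, -0.0287 for Klf9 and -0.4606 for Hsd11b1 in T1. In T3 it was then -0.0772 for Nr3c1, 0.0607 for Sgk1, -0.3203 for Zbtb16 and -0.9905 for Hsd11b1, Zbtb16 had 0.7617 in T5 against T3, and the Sgk1 slope was 0.0079. With the brain marker covariate Tsc22d3 had 0.0144 in T3, Zbtb16 -0.3745 in T5, and Nr3c1 -0.0321 and Fkbp5 -0.2925 in T5 against T3. Sgk1 in T3 had 0.0013 by DESeq2's size factors and by its test, and 0.0154 with only the groups compared, where Tsc22d3 in T3 had 0.022.

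With 1 replicate left out, ranges that cross 0 were, in T1, -0.0888 to 0.0277 for Sgk1 and -0.0033 to 0.1973 for Pdk4. In T3 they were -0.0895 to 0.1426 for Nr3c1, -0.2074 to 0.1157 for Tsc22d3, -0.0624 to 0.0537 for Sgk1, -0.3329 to 0.9352 for Zbtb16 and -1.0088 to 1.6922 for Hsd11b1. In T5 they were -0.1457 to 0.0336 for Sgk1 and -0.0717 to 0.6889 for Zbtb16, and against T3 -0.2386 to 0.4297 for Fkbp5, -0.1429 to 0.0446 for Sgk1 and -0.6657 to 0.7533 for Zbtb16. The Sgk1 slope ran from -0.0293 to 0.0263. The causes of these differences were not tested. Hsd11b1 and Zbtb16 rest on as few as 0 and 23 reads a library, which limits their precision.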
